A study of Homo sapiens with 4 samples.

Results

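The step from undifferentiated human embryonic stem cells to APLNR+ mesoderm-stage cells was described gene by gene from 2 of the 4 RNA sequencing libraries of a culture series towards blood. Every gene symbol present once in both tables was taken, which left 17630 genes of 17634 rows. Both libraries came from H1, an established human embryonic stem cell line. The hESC library is undifferentiated H1, for which the labels state neither an added factor nor a sort. The MES library is H1 after 2 days with activin A at 40 ng/ml and BMP4 at 50 ng/ml, collected on day 2 by fluorescence-activated sorting for APLNR, the apelin receptor. The 2 later libraries, HEP (CD31+CD34+ cells of day 4) and HPC (CD31+CD43+ cells of day 7), had gone on to VEGF and bFGF, and the HPC cells also to SB-431542, which blocks signalling by activin and NODAL. They serve here only to show where a gene stood afterwards. Each group was 1 library of 1 line, so the spread between replicates is unknown, nothing could be tested, and every difference describes these libraries alone.

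In the embryo, NODAL, BMP and WNT signals act on the pluripotent epiblast and set up the primitive streak. Cells that pass through the streak loosen their epithelial contacts, lay down and bind a new matrix, and take on mesodermal or endodermal character according to the strength and timing of these signals. Activin binds the same receptors as NODAL, so activin with BMP4 is a usual way to start this step in culture. APLNR marks early mesoderm in such cultures, including the progenitors of heart, vessel and blood cells.

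The labels were first set against 5 defining genes. APLNR stood at 0.57 in hESC and 344 in MES, then 250 in HEP and 15.6 in HPC. MIXL1, a homeobox factor of the streak, stood at 0.04, 57.2, 0.68 and 0.08 in that order of libraries, and EOMES, a T-box factor of streak and endoderm, at 0.07, 56.5, 3.20 and 0.04. These genes were near 0 in the stem cells, and MIXL1 and EOMES had largely gone again by HEP. MESP1, the bHLH factor of early cardiovascular mesoderm, stood at 0.12, 65.9, 1.73 and 1.13. SOX2, a core factor of the pluripotent state, stood at 56.7, 0.41, 0.08 and 0.05. The markers of both states thus lay on the side their labels give. Brachyury, the streak factor listed under its old symbol T, is an exception in level: it stood at 0.03 in hESC and 3.71 in MES, with 0.54 in HEP and 0.17 in HPC, below the minimum used for the counts that follow. In a bulk sample fewer cells of a type and less RNA per cell cannot be told apart.

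A gene was counted as higher or lower in MES when log2 of (value + 1) differed by at least 1 and the higher library held 5 or more. On that scale the change of genes with low values is understated. By this rule 669 genes were higher in MES, 3.79% of all genes, and 653 were lower, 3.7% of all genes. The counts were alike but the sizes were not. Of the higher genes, 23 differed by 32-fold or more in (value + 1), 32 by 16-fold to 32-fold and 77 by 8-fold to 16-fold. Of the lower genes, 1 (SOX2) was in the largest class, 3 in the next and 22 in the third, and 532 differed by less than 4-fold, against 395 of the higher genes. Of the higher genes 135 stood under 1 in hESC, whereas 44 of the lower genes stood under 1 in MES. The lower genes held 5 or more in both libraries in 333 cases, as did 220 of the higher genes. The differences carry a trend with the GC content of transcripts, described at the end of the results. With the median difference at each GC content removed, 810 genes were higher (4.59% of all genes) and 407 lower (2.31% of all genes), and calls that a list loses in this setting are given beside it. Values near the edge of the rule were those of CENPI, just outside at 5.12 and 11.2, and AKAP12, just inside at 17.3 and 35.7.

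**Figure D1:**
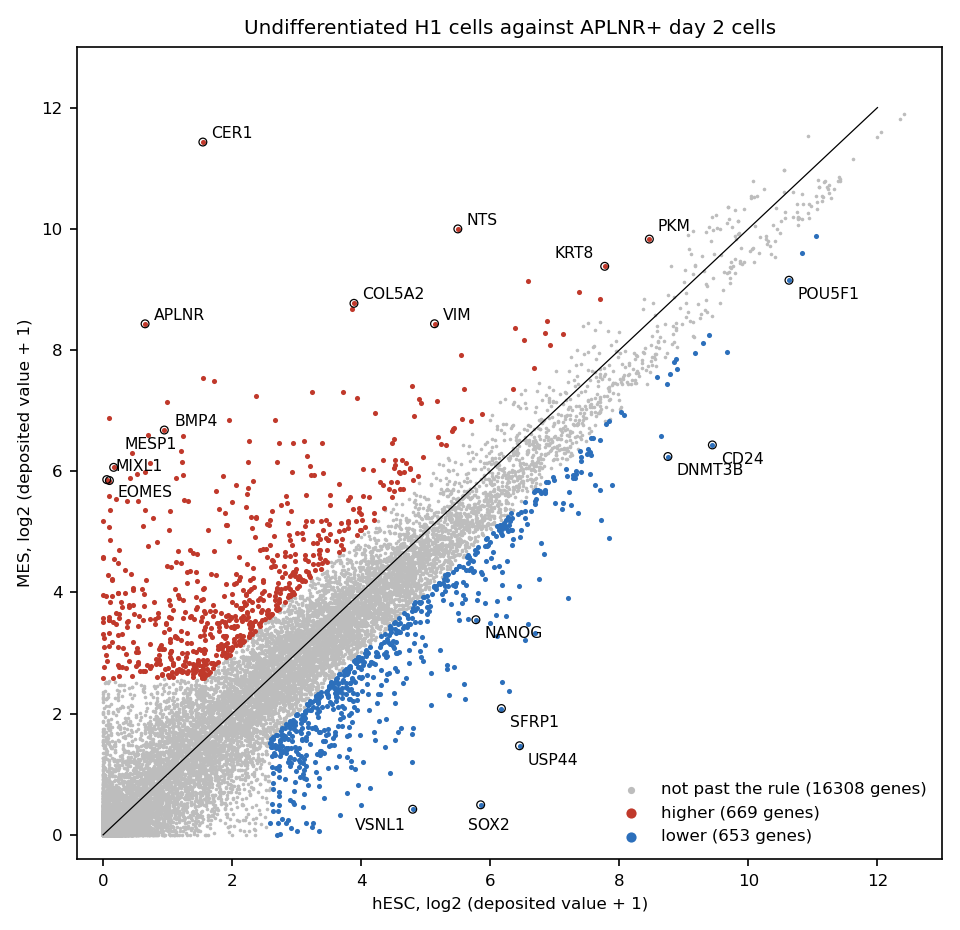
Log2 of (deposited value + 1) of each gene in hESC (x axis) and MES (y axis), 1 point per gene and 1 library per axis, with genes past the rule of size in red (669 higher) and blue (653 lower) and the line of equal values. CER1 lies farthest above the line of equal values, the red points reach down to hESC values of 0, and most blue points lie close to the band of uncalled genes.

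The 30 largest log2 differences upwards, among genes of 10 or more, were led by CER1 and APLNR and then by GRP, the precursor of gastrin-releasing peptide (0.06 in hESC and 117 in MES). The genes that follow are others of these 30. COL5A1, the pro-alpha1 chain of type V collagen, stood at 2.28 in hESC and 178 in MES, then 148 in HEP and 24.8 in HPC. ANKRD1, a nuclear ankyrin-repeat protein and textbook target of YAP, stood at 0.33, 58.5, 9.59 and 0.66. WLS, the carrier that brings WNT proteins to the cell surface, stood at 0.44, 61.0, 18.2 and 3.59. All of these peaked in MES. The same held for RHOBTB3 (1.35 in hESC and 94.8 in MES), PLXNA2, a semaphorin receptor (0.15 and 45.7), COLEC12, a scavenger receptor (0.57 and 62.6), and ATP12A, a proton and potassium pump (0.29 and 44.4). FLNC, an actin-crosslinking filamin, stood at 1.31 and 79.95, NPPB, the precursor of the natriuretic peptide BNP, at 0.07 and 32.9, and the giant scaffold gene AHNAK at 0.46 and 44.3. SERPINE2, a secreted protease inhibitor, was already at 13.5 in hESC and reached 409.

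In all, 6 genes were listed at 0 in hESC and stood at 10 or more in MES. These were the transcription factors GATA6 (35.1) and GSC (23.1), the growth factor FGF10 (14.5), the immunoglobulin-superfamily receptor PRTG (22.8), the protease inhibitor SLPI (10.9) and RFPL2 (10.4). A listed 0 can be a failed estimate, so no fold is given for them.

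Among genes past the rule, the 20 largest gains in the value itself, rather than in its ratio, included CER1, APLNR and genes already well above 0 in stem cells. NTS, the precursor of the gut and brain peptide neurotensin, stood at 44.2 in hESC and 1022 in MES, then 57.2 in HEP and 15.5 in HPC, so of the 4 libraries MES alone was high. PKM, pyruvate kinase of glycolysis, went from 352 to 909, TAGLN, the actin-binding transgelin, from 94.8 to 561, FABP5, a fatty acid carrier, from 166 to 497, and ANXA2, a calcium-dependent membrane-binding annexin, from 82.9 to 327. The 20 genes with the largest gains accounted for 9009 units of the 21685 gained by all higher genes, with CER1 the largest of them. Genes not past the rule can gain more: TMSB10, an actin-binding peptide gene, stood at 1937 in hESC and 2964 in MES.

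A few promoters are shown, those of MIXL1 and SP5 for the motifs they hold and those of EOMES and SOX2 as marker genes without them, because NODAL and WNT signals reach streak genes through short DNA motifs: FOXH1 carries SMADs to DNA, and TCF and LEF factors carry beta-catenin. The sequences are the 250 bases upstream of the RefSeq start site in build GRCh38.p14, 5′ to 3′ on the strand of the gene. Capitals mark matches on either strand to AATCCACA (the FOXH1 motif, whose opposite strand reads TGTGGATT) or CTTTGAT (a TCF and LEF motif). The genes were chosen after their values were seen.
MIXL1 (chr1:226223414-226223663, plus strand): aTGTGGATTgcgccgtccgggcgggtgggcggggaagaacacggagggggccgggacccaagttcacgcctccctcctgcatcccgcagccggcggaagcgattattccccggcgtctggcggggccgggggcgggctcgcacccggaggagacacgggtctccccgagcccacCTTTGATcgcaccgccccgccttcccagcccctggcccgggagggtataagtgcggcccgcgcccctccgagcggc
SP5 (chr2:170715087-170715336, plus strand): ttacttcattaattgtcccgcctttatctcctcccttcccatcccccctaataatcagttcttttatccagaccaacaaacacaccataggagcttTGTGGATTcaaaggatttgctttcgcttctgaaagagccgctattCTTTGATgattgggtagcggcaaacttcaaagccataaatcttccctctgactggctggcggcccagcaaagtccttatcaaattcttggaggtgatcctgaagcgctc
EOMES (chr3:27722324-27722573, minus strand): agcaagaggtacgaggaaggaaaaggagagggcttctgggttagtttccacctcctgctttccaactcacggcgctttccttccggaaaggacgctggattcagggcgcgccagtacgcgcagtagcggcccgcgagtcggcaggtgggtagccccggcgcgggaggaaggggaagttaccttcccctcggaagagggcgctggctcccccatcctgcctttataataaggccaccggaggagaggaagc
SOX2 (chr3:181711675-181711924, plus strand): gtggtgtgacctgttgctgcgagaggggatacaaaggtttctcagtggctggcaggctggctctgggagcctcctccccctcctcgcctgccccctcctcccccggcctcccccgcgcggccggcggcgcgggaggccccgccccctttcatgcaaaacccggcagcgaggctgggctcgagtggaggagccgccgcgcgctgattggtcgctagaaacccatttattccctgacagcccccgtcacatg
Among 13567 genes with an upstream sequence, the FOXH1 motif was found in 0.45% and the TCF and LEF motif in 1.49%. T-box, octamer, AP-1, TEAD and GATA motifs were searched as well, and found in 0.612%, 1.42%, 4.53%, 1.99% and 1.73%. The FOXH1 motif and the TCF and LEF motif stood together in 5 promoters, 0.0369%, those of MIXL1, SP5, CNTF, MPP4 and OR11A1. No other pair of motifs was counted, and a link between this pair and the values was not tested. Counted in bases from the start site, the matches began at -249 and -76 in MIXL1 and at -154 and -109 in SP5, a WNT-responsive zinc finger factor. Of these 5 genes MIXL1 and SP5 were higher in MES. CNTF stood at 0.91 in hESC and 0.97 in MES, MPP4 was listed at 0 and 0.07, and OR11A1 was listed at 0 in both. The windows of EOMES and SOX2 held neither motif, nor did that of CER1, and that of HAND1 held the TCF and LEF motif alone, at -46. A match is a run of letters and not a bound site, and no match says nothing about more distant elements. Only 75.2% of higher genes and 78.1% of lower genes had a sequence, under the 80% needed for a comparison between the sets, so none was made.

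Of 32 ligand genes of the TGF-beta family 6 were higher in MES and none lower, and 12 were detected at all. Of 19 antagonists of BMP and NODAL 6 were higher and none lower, with LEFTY1 and LEFTY2 on both lists. BMP4 stood at 0.93 in hESC and 102 in MES, then 20.5 in HEP and 1.74 in HPC, and BMP2 at 0.62, 95.7, 3.34 and 0.70. NODAL stood at 3.69 in hESC and 7.36 in MES, a log2 difference of 0.83 that did not pass the rule, and was at 0.33 in HEP and 0.04 in HPC. TGFB1 (0.55 in hESC and 12.7 in MES, with 27.8 in HEP) and GDF15, a stress-responsive member (2.18 and 18.8), also passed, and GDF3 (4.08 and 4.31) stayed level. The library difference was therefore larger in BMP4 and BMP2 than in NODAL itself.

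Among the antagonists, CER1, which binds NODAL and BMP proteins, was at 1.92 in hESC and 2761 in MES, then 2.22 in HEP and 1.03 in HPC. FST, which traps activin, was at 2.61, 59.7, 1.95 and 0.09. NOG, which traps BMPs, was at 0.07, 10.7, 2.78 and 0.16. All 3 were low before and after MES. BMPER, a regulator of BMP in vessel development, differed in this: it stood at 0.08, 28.0, 28.4 and 2.53, so its MES level was held in HEP. The NODAL feedback inhibitors LEFTY1 (6.97 and 19.9) and LEFTY2 (2.16 and 11.9) differed less. CER1 alone gave most of the sum of the list, which made up 0.0269% of the library sum in hESC and 0.844% in MES.

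Of 20 receptors and co-receptors of the family 2 were higher and none lower. BAMBI, a decoy receptor that BMP induces, went from 14.4 to 147 and BMPR2, the type II BMP receptor, from 0.53 to 5.55. The activin receptor ACVR2B stood at 20.4 and 22.5, and TDGF1, the NODAL co-receptor known as a stem cell marker, at 225 and 165, neither past the rule. TDGF1 stood at 5.03 in HEP and 0.24 in HPC, so its low values came after MES. Of 19 SMADs and partners 3 were higher, all of them feedback genes: SMAD6 (0.45 and 9.94), SMAD7 (9.07 and 21.2) and PMEPA1 (3.20 and 8.67). TGIF1, a repressor of SMAD targets, was lower (101 and 49.4), but not with the GC trend removed.

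Immediate targets of BMP stood higher as a group: 9 of 14 genes passed the rule upwards and none downwards, with a median log2 difference of 2.88 over the 12 detected, beside -0.14 over all 11425 detected genes. Detected means 1 or more in either library; a gene detected through 1 library alone can only differ towards it, so such medians are descriptions. ID1, an inhibitor of bHLH factors, stood at 116 in hESC and 356 in MES, then 523 in HEP and 100 in HPC. TBX3, a T-box repressor, stood at 0.12, 22.4, 15.8 and 7.66. ID3, by contrast, did not pass the rule (128 in hESC and 200 in MES, log2 difference 0.64). In HEP ID1 stood above its MES level and TBX3 kept most of its own, whereas BMP4 and BMP2 did not. Other members of the list went both ways, with SMAD6 at 9.94 in MES and 37.0 in HEP and BAMBI at 147 and 70.2.

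Several WNT ligands, their carrier and some receptors were higher, and antagonists were mixed. Of 24 genes for ligands and their carrier, 4 were higher and none lower. WNT3, the ligand required for streak formation in the mouse, stood at 0.59 in hESC and 17.4 in MES, then 5.63 in HEP and 1.25 in HPC, and WNT5A, a ligand of cell polarity signalling, at 0.54, 33.3, 1.06 and 0.76. Of 21 receptors 6 were higher and 1 lower. ROR2, a receptor for WNT5A, went from 0.98 to 20.6, FZD8 from 1.64 to 24.1, FZD4 from 2.67 to 14.4 and LGR4, an R-spondin receptor, from 10.2 to 28.3, while FZD5 went from 5.65 to 1.19. A ligand of polarity signalling and 1 receptor for it were thus both higher, while ROR1, on the same receptor list, did not pass the rule (11.15 and 6.55).

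Of 19 WNT antagonists 3 were higher and 2 lower, split by family. DKK1, which blocks the co-receptor LRP6, stood at 0.08 in hESC and 40.2 in MES, then 1.89 in HEP and 0.65 in HPC, and DKK3 went from 6.54 to 39.8. NKD1, an intracellular feedback inhibitor, went from 0.38 to 12.79. The secreted frizzled-related genes went the other way: SFRP1 stood at 71.1, 3.24, 12.4 and 9.81, and SFRP2 went from 59.4 to 17.6. Of 21 genes of the beta-catenin pathway SP5 was higher (0.06 in hESC, 10.7 in MES, 16.0 in HEP) and the kinase TNIK lower (10.3 and 1.77). AXIN2, a widely used WNT target, stayed level (3.15 and 3.33), and LEF1 stayed below the minimum (0.09 and 3.46).

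Of 22 FGF ligand genes 8 were detected, 3 were higher and 1 was lower. FGF8, FGF10 and FGF17, ligands of the streak and early mesoderm, were higher: FGF8 stood at 0.40 in hESC and 11.5 in MES, then 0.68 in HEP and 0.06 in HPC, and FGF17 at 0.07, 7.71, 1.61 and 0.05. FGF2, the ligand on which stem cell culture relies, was lower (12.1, 3.81, 0.45 and 0.43). Of 15 receptors and cofactors 3 were higher: FLRT3, FGFR3 and FGFRL1, with FGFR3 at 1.05 and 8.35. Of 17 ERK feedback and PEA3 genes 3 were higher and 3 lower. DUSP6, an ERK phosphatase, went from 76.0 to 21.9, ETV4 from 34.7 to 15.6 and ETV1 from 7.24 to 1.18, whereas DUSP5 went from 14.6 to 41.0 and EGR1 and DUSP1, which are also immediate early genes, from 0.32 to 12.61 and from 1.95 to 11.97.

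**Figure D2:**
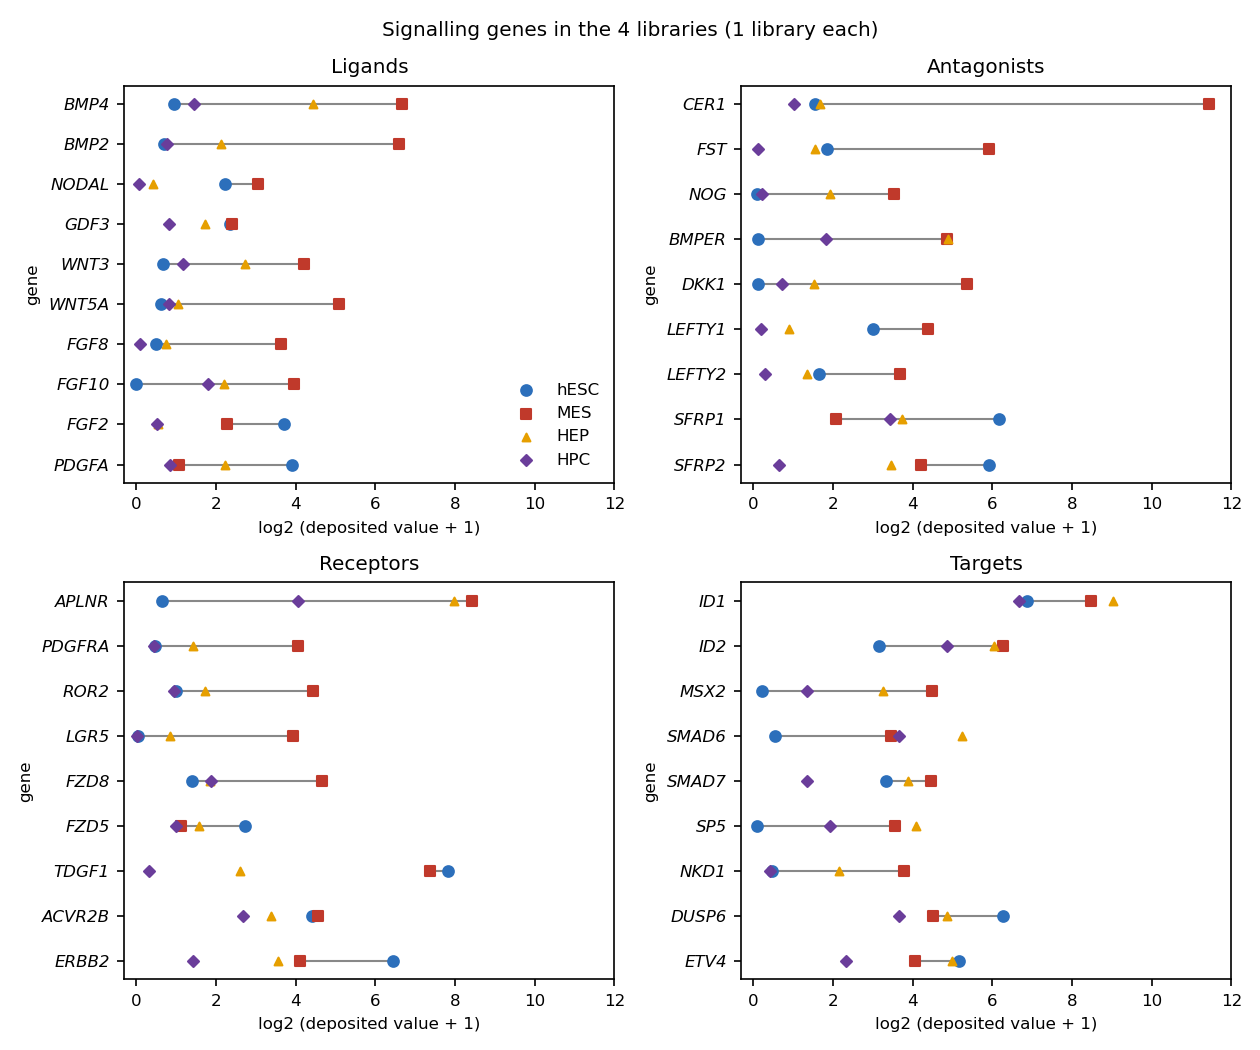
Log2 of (deposited value + 1) of signalling genes in the 4 libraries (1 point per library), by role, with a line joining hESC and MES. Most ligands and antagonists peak in MES and are low again in HEP and HPC, SFRP1, SFRP2, FGF2, PDGFA, FZD5, ERBB2, DUSP6 and ETV4 run the other way, and NODAL, GDF3, TDGF1 and ACVR2B lie close together in hESC and MES.

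Of 20 retinoic acid genes 2 were higher and 2 lower. CYP26A1, which degrades retinoic acid, stood at 0.98 in hESC and 140 in MES, then 8.46 in HEP and 0.11 in HPC. Of the carrier proteins, CRABP2 was higher in MES (21.8, 91.5, 72.5 and 6.22) and CRABP1 lower (71.8, 16.3, 0.61 and 0.37). DHRS3, which turns retinal back to retinol, was lower (6.25 and 1.69).

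Among other receptors and ligands, PDGFRA, a receptor of early mesoderm, stood at 0.38 in hESC and 15.5 in MES, then 1.68 in HEP and 0.37 in HPC, while its ligand gene PDGFA went from 14.03 to 1.12. ERBB2, an epithelial receptor kinase, went from 85.7 to 16.3. Of 31 receptor tyrosine kinases 4 were higher and 3 lower, 2 with the GC trend removed. In the NOTCH pathway 2 of 27 genes were higher, the divergent ligand DLL3 (2.28 and 24.7) and the target HES1 (6.10 and 47.5), and LFNG, which modifies NOTCH receptors, was lower (11.5 and 2.46). The apelin receptor had company in ACKR3, a chemokine scavenger receptor (0.18 and 10.9), but neither of its ligand genes was higher, with APELA at 7.78 and 3.74 and APLN at 0.32 and 0.02, nor was CXCL12 (10.1 and 6.84). None of 15 hedgehog genes passed the rule.

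Transcription factors of the streak and of early mesoderm were higher in several families. Of 51 homeobox genes of gastrulation 10 were higher and 3 lower. MSX2, a BMP target, stood at 0.17 in hESC and 21.4 in MES, then 8.59 in HEP and 1.53 in HPC. LHX1 (listed at 0 and at 8.95), IRX3 (0.31 and 10.5) and MEIS3 (7.06 and 30.6) also passed. The lower genes included NANOG and HESX1, a repressor of the anterior epiblast (7.00 and 0.04).

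Of 26 mesodermal bHLH genes 6 were higher and 1 lower. MESP2, the neighbour and relative of MESP1, stood at 0.35 in hESC and 18.7 in MES, then 0.56 in HEP and 0.36 in HPC, and HAND1, a factor of lateral plate and extra-embryonic mesoderm, at 0.07, 47.1, 17.4 and 1.16. TCF15, a factor of paraxial mesoderm also found in pluripotent cells primed to differentiate, was lower (5.64 and 1.09). GATA4 stood at 0.08, 13.4, 6.95 and 1.46, so of 8 GATA and FOG genes GATA4 and GATA6 were higher. Of 38 forkhead genes 2 were higher, FOXF1 of lateral plate (0.03 and 6.85) and FOXK1 (2.06 and 6.39). The 2 lower ones were FOXO4 (9.06 and 3.78) and FOXD3, a pluripotency factor (5.71 and 0.01). Both forkhead counts were near the shares over all genes, 3.79% higher and 3.7% lower. None of 37 HOX genes passed the rule, and 3 of them reached 1 in either library.

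Genes on the lists of several neighbouring fates were higher in MES, and not those of a single fate alone. Of 27 genes of lateral plate and cardiogenic mesoderm 15 were higher and none lower, with a median of 3.66 over the 22 detected. Of 15 genes of the anterior and axial streak 8 were higher and none lower, and of 21 genes of definitive endoderm 8 were higher and none lower. These lists share CER1 and other members and are not separate evidence. The lateral plate list also holds APLNR, the gene of the sort, and the marker MESP1, and the anterior streak list holds the marker EOMES. Part of these counts was therefore given in advance, and they do not place the library. FOXA2, a defining endoderm and axial gene, was near 0 in both libraries (0.01 and 0.23), while SOX17, which also marks endothelium and germ cells, went from 0.19 to 25.1. Of 25 posterior streak and paraxial genes 4 were higher and 2 lower; TBX6, which specifies paraxial mesoderm, was at 0.35 and 2.10, and MSGN1 at 0.04 and 0.13.

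Most markers of endothelium, blood and neural ectoderm were not detected, with exceptions. Of 29 endothelial genes 8 were detected, 2 were higher and 1 lower. KDR, a VEGF receptor, was higher (24.5 in hESC and 62.4 in MES), and EGFL7 (32.9 and 21.4) and FLT1 (19.7 and 10.4) were present in both libraries. The vessel cadherin CDH5 stood at 0.33 in hESC and 0.14 in MES, then 73.5 in HEP and 25.1 in HPC. Of 34 blood genes 9 were detected and 1, GYPB, was higher (listed at 0 and at 5.02). RUNX1, a factor of blood emergence, was listed at 0 in hESC and stood at 0.45 in MES and 2.83 in HEP. Of 32 neural ectoderm genes 7 were detected: NCAM1 (0.54 and 10.7) and ZNF521 (1.91 and 13.9) were higher, TUBB3 (159 and 63.4) was lower, and NES stood at 57.0 and 81.1. PAX6 and SOX1 were listed at 0 in hESC and at 0.03 in MES. Of 23 genes of amnion, trophoblast and surface ectoderm 1 was higher, TFAP2C (0.37 and 5.12). Of 18 germ cell genes 3 were higher, SOX17, TFAP2C and NANOS3 (0.29 and 9.82).

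**Figure D3:**
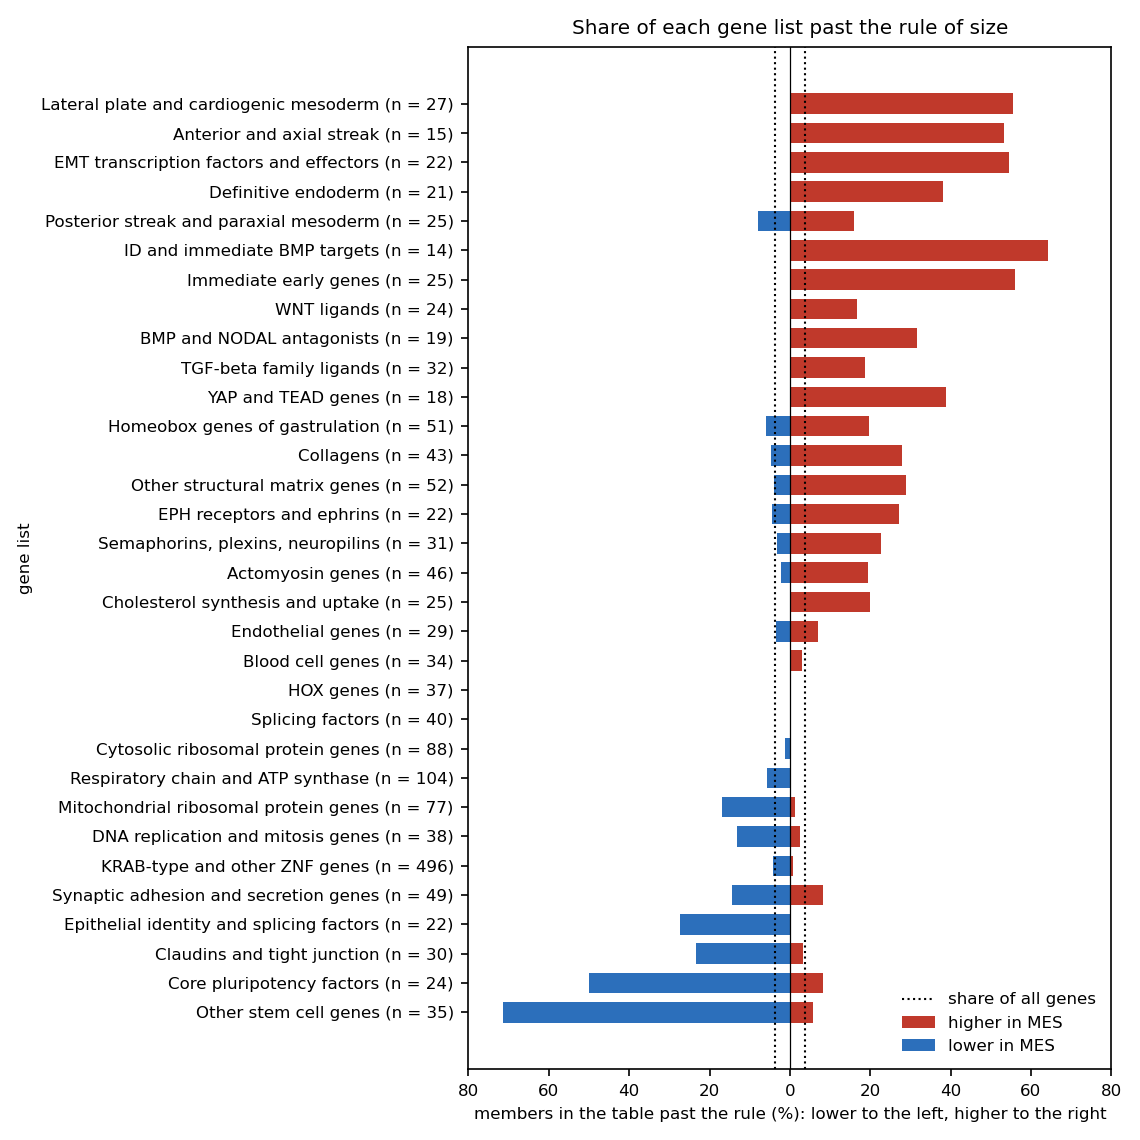
Share of each gene list past the rule of size, in percent of its members in the tables (n in brackets), with higher genes to the right and lower genes to the left, 1 library a side. Dotted lines mark the shares over all genes, 3.79% and 3.7%. Mesoderm, streak, BMP target and mesenchymal transition lists reach far beyond them to the right, and stem cell and epithelial lists to the left. Mitochondrial ribosomal protein genes also pass the line to the left (13 of 77 lower), and cytosolic ribosomal protein, splicing and HOX lists stay near 0.

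Several genes of mesenchymal adhesion were higher, and several epithelial ones lower. Of 22 genes of the epithelial to mesenchymal transition 12 were higher and none lower, with a median of 2.33 over the 18 detected. The repressors SNAI1 and SNAI2 stood at 0.38 and 0.15 in hESC, 8.06 and 10.2 in MES, and 1.84 and 1.21 in HEP. Among classical cadherins CDH2 was higher (7.88 in hESC and 47.8 in MES, then 12.02 in HEP and 3.69 in HPC) with CDH11 (1.07 and 20.4), and CDH1 was lower (31.5, 12.5, 2.76 and 1.13) with CDH3 (60.2 and 22.0). CDH1 therefore stayed well above 0 in MES, and its lowest values came later.

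Of 30 claudin and tight junction genes 7 were lower and 1, CLDN11, was higher (0.96 and 10.2). CLDN6, a claudin of pluripotent cells, went from 127 to 43.5 and MAL2, of apical transport, from 19.7 to 1.72. Of 22 genes of epithelial identity 6 were lower, 5 with the GC trend removed, and none higher, among them the transcription factor GRHL2 (9.56 and 1.92) and the epithelial splicing regulator ESRP1 (19.8 and 4.89). Most members of both lists did not pass the rule, among them TJP1 (12.6 and 13.4) and SPINT1 (17.5 and 18.1). Of 32 keratin genes 2 were higher. KRT8 stood at 218 in hESC and 666 in MES, then 673 in HEP and 46.7 in HPC, and KRT19 at 115, 309, 176 and 27.7. KRT18, the partner of KRT8, did not pass the rule (332 in hESC and 457 in MES).

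Among matrix genes past the rule most were higher. Of 43 collagen genes 12 were higher and 2 lower, and of 52 other structural matrix genes 15 were higher and 2 lower. COL5A2 stood at 13.8 in hESC and 436 in MES, then 100 in HEP and 8.92 in HPC, next to its partner chain COL5A1. FBN2, a fibrillin of embryonic microfibrils, stood at 4.19, 150, 67.9 and 9.62, and TNC, tenascin C, at 1.36, 60.1, 27.1 and 0.64. The lower members were COL9A1 (9.14 and 0.75), COL14A1 (6.81 and 0.42), THBS2 (5.53 and 0.14) and EDIL3 (7.80 and 1.49). COL9A1 and its partner chain genes parted, with COL9A2 (1.5 and 44.3) and COL9A3 (17.3 and 38.9) higher. Collagens made up 0.0660% of the library sum in hESC and 0.360% in MES. The list of fibroblast matrix genes, which overlaps with these, had 7 of 16 higher and 1 lower, the marker THY1 (76.8 and 14.1). Its summed value was 0.0431% of the library sum in hESC and 0.130% in MES, and the part of fibroblast-type cells in the result was not tested.

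Of 36 hyaluronan and proteoglycan genes 5 were higher and 3 lower. HAS2 was higher, as was HAPLN1, a link protein that ties hyaluronan to proteoglycans (1.19 in hESC and 58.4 in MES, then 205 in HEP and 50.2 in HPC). HAS3, another synthase, was lower (5.16, 0.43, 0.66 and a listed 0), as was HAPLN3 (27.0 and 2.41), and the glypican GPC3 went from 21.8 to 4.04 while GPC6 went from 2.71 to 8.69. Among 25 integrins 4 were higher and 1 lower. ITGA5, the alpha chain of the fibronectin receptor, stood at 6.69 in hESC and 87.2 in MES, then 154 in HEP and 39.7 in HPC. ITGA6, the alpha chain of laminin receptors, stood at 40.1, 3.95, 5.42 and 2.15. Of 67 matrix proteases and inhibitors 11 were higher, among them MMP14 (29.3 and 138) and its substrate MMP2 (2.79 and 33.7), and 2 were lower, 1 of them with the GC trend removed.

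Genes of cell guidance and of the cytoskeleton were mostly higher where they passed the rule. Of 22 EPH receptors and ephrins 6 were higher and 1 lower: EPHA4 stood at 1.53 in hESC and 24.95 in MES, then 4.46 in HEP and 1.09 in HPC, EPHA2 at 9.57, 61.5, 46.4 and 10.9, and EPHA1 went the other way (54.9, 14.9, 7.59 and 1.04). Of 31 semaphorin, plexin and neuropilin genes 7 were higher and 1 lower, with SEMA6D at 0.10 and 14.4, NRP2 at 2.70 and 38.7, and SEMA3A lower at 8.88 and 1.06. Of 46 actomyosin genes 9 were higher and 1, TPM3, was lower (152 and 42.3); ACTC1, cardiac actin, stood at 2.35 in hESC and 49.9 in MES, then 54.6 in HEP and 1.71 in HPC. Of 18 YAP and TEAD genes 7 were higher and none lower, among them AMOTL2 (5.78 and 42.7) and TEAD1 itself (3.67 and 21.2).

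Many core pluripotency factors and other stem cell genes were lower, but unevenly, and naive pluripotency genes were mixed. Of 20 naive pluripotency genes 2 were higher and 2 lower, 1 of them with the GC trend removed. Their median was 0.21 over the 8 detected. Of 24 core pluripotency factors 12 were lower and 2 higher, and of 35 other stem cell genes 25 were lower and 2 higher. With the GC trend removed 9 and 24 of them were lower. The core list holds the marker SOX2, and the lists were chosen with earlier results of these data known. Part of these counts was therefore given in advance. POU5F1 stood at 1582 in hESC and 568 in MES, then 112 in HEP and 15.4 in HPC. NANOG stood at 53.8, 10.7, 3.12 and 1.28. POU5F1 and NANOG were thus still present in MES, at 35.9% and 19.9% of their hESC values, whereas SOX2 was at 0.723% and FOXD3 at 0.175%. The percentages of SOX2 and FOXD3 rest on MES values near 0 (0.41 and 0.01), so they do not rank these genes. SALL4 (26.9 and 25.7) and LIN28B (24.4 and 28.4) were level, while LIN28A was lower (442 and 194), though not with the GC trend removed. The core factors that were higher included OTX2, also a factor of the anterior embryo (10.1 and 25).

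Among the other stem cell genes, CD24, a surface glycoprotein, stood at 694 in hESC and 85.5 in MES, then 66.3 in HEP and 118 in HPC. SEPHS1, a selenophosphate synthetase relative, stood at 228, 28.8, 12.58 and 10.7, and POLR3G, a subunit of RNA polymerase III typical of pluripotent cells, at 47.6, 3.75, 0.10 and 0.27. These 3 had most of their drop before MES. Outside the lists, the largest differences downwards included DPYSL3, a cytoskeletal protein of growing neurons (102 and 9.08), AASS, an enzyme of lysine breakdown (146 and 13.9), MATK, a tyrosine kinase (16.7 and 0.71), and AK4, a mitochondrial adenylate kinase (26.7 and 2.17). Of 49 synaptic and secretory granule genes 7 were lower and 4 higher. The granule genes CHGA (21.9 and 1.95) and SCG3 (22.8 and 2.24) were lower, and the adhesion genes NCAM1 (0.54 and 10.7) and L1CAM (1.16 and 8.75) were higher.

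Among chromatin genes, PHC1, a Polyhomeotic subunit, stood at 95.0 in hESC and 10.2 in MES, then 6.03 in HEP and 5.10 in HPC, and its relative PHC2 at 1.56, 11.2, 35.3 and 20.4. JARID2, which brings Polycomb complex 2 to chromatin, went from 62.8 to 10.3. Of 33 Polycomb and trithorax genes 3 were lower and 2 higher. Among DNA methylation enzymes DNMT3A was lower (25.9 and 10.2) beside DNMT3B (430 and 74.7). Of 496 zinc finger genes 4 were higher and 21 lower, and 13 were lower with the GC trend removed. Both lower counts were near the shares over all genes, 3.7% as deposited and 2.31% with that trend removed.

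Most genes of metabolic and household machinery did not pass the rule, though some of their lists had medians below that of all detected genes. Of 25 genes of cholesterol synthesis and uptake 5 were higher and none lower, and 11 with the GC trend removed: HMGCS1, an early enzyme of the pathway, stood at 38.9 in hESC and 85.8 in MES, then 37.0 in HEP and 15.9 in HPC. FASN, fatty acid synthase, went from 47.3 to 162. Of 29 glycolysis genes 2 were higher, PKM and the lactate carrier SLC16A3 (1.24 and 14.6), and the list median, 0.01, changed sign between scalings. Of 24 serine, glycine and one-carbon genes 6 were lower, led by GLDC, the glycine decarboxylase (29 and 7.21), and 3 of them with the GC trend removed.

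Of 77 mitochondrial ribosomal protein genes 13 were lower and 1 higher, and 4 were lower with the GC trend removed. Of 104 respiratory chain genes 6 were lower, and 3 with that trend removed. These 2 counts were not far above the shares over all genes, 3.7% as deposited and 2.31% with that trend removed. The median was -0.61 over the 77 detected mitochondrial ribosomal genes and -0.61 over the 96 detected respiratory chain genes, beside -0.14 over all detected genes. Neither median changed sign between scalings, with ranges of -0.60 to -0.38 and -0.62 to -0.38. Respiratory chain genes made up 3.15% of the library sum in hESC and 2.25% in MES. Of 88 cytosolic ribosomal protein genes 1 was lower, but not with that trend removed, with a median of -0.50 over the 85 detected, and they made up 28.9% of the library sum in hESC and 23.7% in MES. None of 17 housekeeping genes passed the rule, and their median of -0.01 changed sign between scalings. Of 38 genes of replication and mitosis 5 were lower, 3 with the GC trend removed, and 1 higher: the replication helicase gene MCM5 went from 169 to 62.1, while MKI67 went from 4.37 to 10.3.

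Immediate early genes, which respond within minutes to handling as well as to growth factors, stood higher in MES for 14 of 25 genes and lower for none, with a median of 1.94 over the 21 detected. JUN stood at 3.17 in hESC and 53.7 in MES, then 22.8 in HEP and 6.95 in HPC. Of 24 p53 targets 6 were higher and 1, RRM2B, was lower, though not with the GC trend removed, with CDKN1A, the p21 cell cycle inhibitor, at 4.73, 25.2, 28.8 and 77.5. The list of heat shock and unfolded protein genes did not move with them. Of its 29 genes 2 were higher, BAG3 (1.70 and 14.2) and ASNS (23.3 and 50.9), and 3 lower. None of these 3 was lower with the GC trend removed. The labels state a sort for the MES cells but none for the stem cells, and the ERK genes EGR1 and DUSP1 named above are also immediate early genes, so in these values the effect of the sort cannot be told apart from that of differentiation.

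The differences followed the GC content of the transcripts to a small degree. Among 6780 genes averaging 5 or more over both libraries, log2 difference and GC content had a Spearman rho of 0.21, and the slope was 0.18 log2 units per 10 points of GC content; genes are not replicates. With these genes ranked by GC content and cut into 10 groups of 678, the group lowest in GC had a median of -0.37, with 20 genes higher and 63 lower. The group highest in GC had a median of -0.01, with 63 higher and 35 lower. Higher genes had a median GC content of 53.2% and lower genes 48.5%, beside 49.9% over detected genes. Transcripts of higher genes were also longer, at a median of 2087 bases against 1500 and, over detected genes, 1793.

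**Figure D4:**
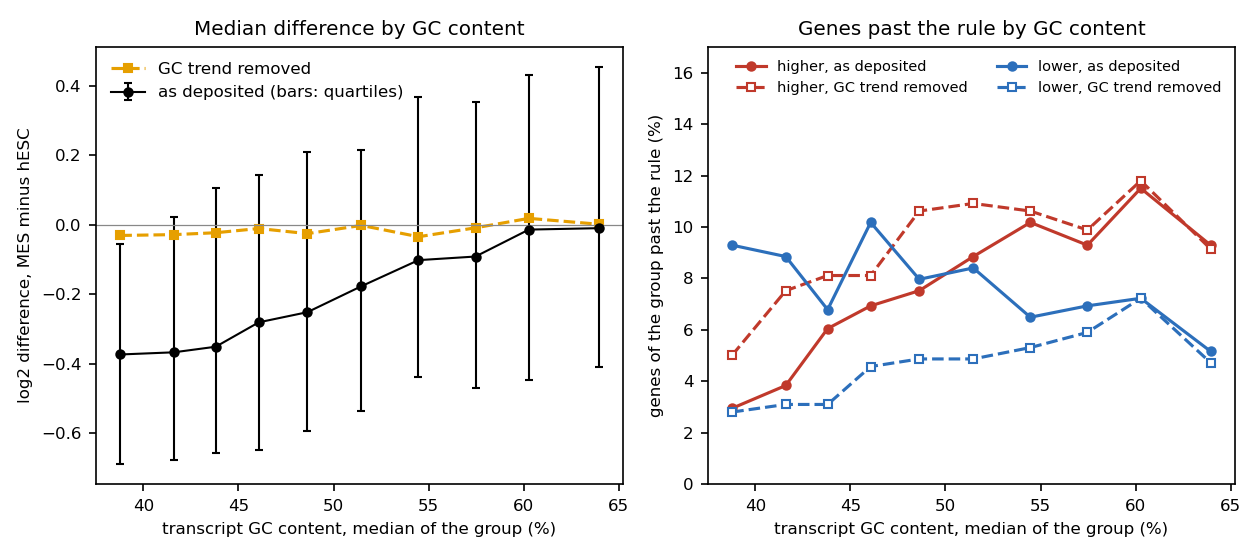
Left: median log2 difference (MES minus hESC) in 10 groups of 678 genes ranked by transcript GC content, as deposited (black, bars are quartiles over genes) and with the GC trend between the 2 libraries removed (orange). Right: percent of each group past the rule, higher in red and lower in blue, as deposited (solid) and with the trend removed (dashed); in the group lowest in GC 9.29% of genes were lower as deposited and 2.80% with the trend removed.

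Removing the median difference at each GC content also takes out the level shift between the libraries, 0.22 on the log2 scale. After it 666 of the 669 higher genes and 407 of the 653 lower genes were still past the rule, and 144 further genes were higher. When the slope alone was removed and the level kept, a setting chosen after the data were seen, 610 and 563 were still past the rule. Scaling to a common total kept all 669 higher genes and 385 of the lower ones, so 268 of the lower genes depend on that choice of level. The higher share among all called genes was 50.6% as deposited, 66.6% with the GC trend removed, 49.5% with the slope alone removed and 69.8% on a common total. All 22 list medians of 1 or more in size kept their sign under the 7 scalings tried, and 19 of the 98 medians, all of them smaller, changed sign in at least one. SOX2, VSNL1 and USP44 (log2 differences of -5.21, -4.23 and -4.69 with the GC trend removed) stayed far past the rule in that setting, while the small differences of many lower genes did not.

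**Figure D5:**
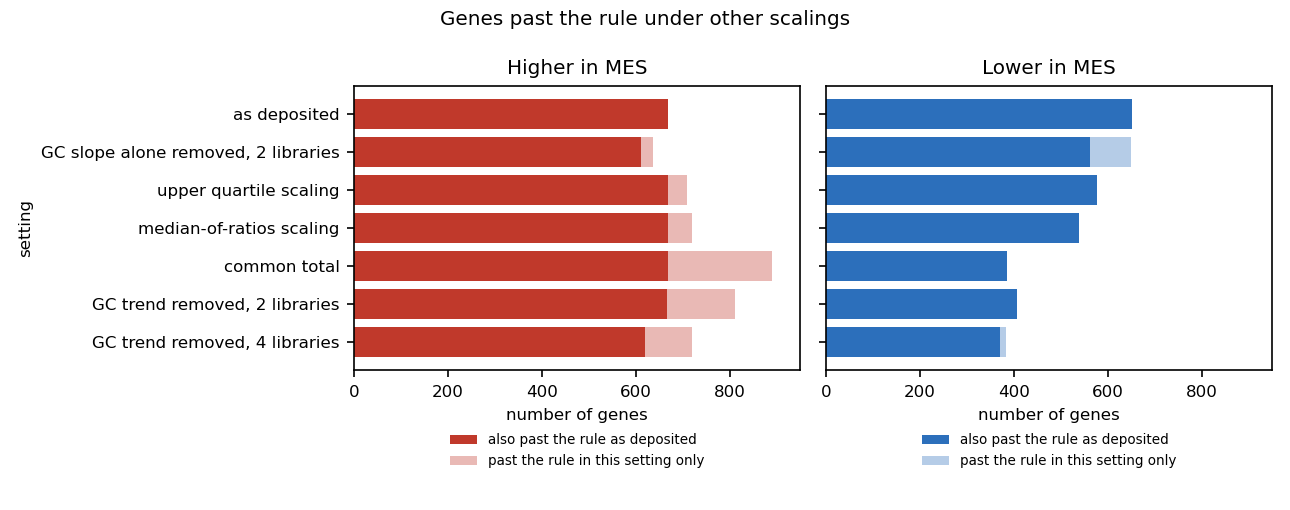
Number of genes past the rule of size in MES against hESC under other scalings, higher on the left and lower on the right, with full colour for genes also past the rule as deposited and pale colour for genes past it in that setting alone. The higher genes change least, from 610 to 669 shared with the deposited values, and the lower genes drop to 371 with the GC trend of 4 libraries removed, 385 on a common total and 407 with the trend of the 2 libraries removed.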

How the data were processed

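Messenger RNA was measured in 1 library each of hESC and MES, from 2 ug of total RNA with an Illumina TruSeq kit per the labels' protocols. The authors deposited a normalised expression signal per gene; BWA, Bowtie, RSEM and build hg19 are named in the submitters' processing notes, while for versions, roles, annotation, strand and the RSEM measure the entry is: not given in the sources used here. The depth behind the values is unknown, low values show no steps of whole reads, and overlapping genes or near-identical copies (ribosomal proteins, histones) share reads. The sums of the 17630 genes were 426980 in hESC and 363396 in MES. Tables were joined on symbol; 4 rows of repeated symbols were left out, and 24 symbols that read as dates were kept unnamed.

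With Python 3.11.15, numpy 2.4.6, pandas 2.3.3 and scipy 1.17.1, log2 of (value + 1) was compared; no test was possible with 1 library a group. GC content and length were taken from GENCODE 29 as the median over each gene's protein-coding transcripts, found by symbol or RefSeq synonym for 17428 genes (98.8%). The trend was the median log2 difference in 50 bins of GC content, over genes averaging 5 or more, smoothed over 5 bins. Promoters are RefSeq's, of GRCh38.p14; no coordinates come from the files. Genes named are the 5 markers, the 30 largest log2 differences each way among genes of 10 or more, the 20 largest gains and losses, up to 6 members each way and 4 level members per list, and genes listed at 0 in 1 library and at 10 or more in the other. Genes outside that rule (LEF1, AXIN2, TBX6, MSGN1, FOXA2, CDH5, RUNX1, PAX6, SOX1, T, APLN, GDF3, MEIS3, MMP14, SNAI1, COL9A3, the motif-bearing genes past SP5 and MIXL1, and the edge genes) were chosen after their values were seen. The members and the 98 gene lists were chosen with earlier results of these data known. Alternatives were other pseudocounts, minimums, folds, scalings and GC removals. The procedure was tested on simulated data. A few results are not reported here.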

Additional observations from a re-analysis of the deposited data

How the results depend on the processing

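With 1 library a group every value describes these libraries alone, and the unknown depth limits what can be said of genes under 5. As deposited 669 genes were higher and 653 lower, 50.6% of them higher. The higher genes numbered 409 with a pseudocount of 5, 1028 with no minimum, 248 with a minimum of 20 and 274 at 4-fold. The lower genes numbered 314 with a pseudocount of 5, 977 with no minimum, 288 with a minimum of 20, 121 at 4-fold, 385 on a common total, 391 on a common total without mitochondrial, ribosomal protein and histone genes, 383 with the GC trend of the 4 libraries removed and 407 with that of the 2 libraries removed. The share of higher genes was 56.6% with a pseudocount of 5, 46.3% with a minimum of 20, 69.4% at 4-fold, 57.1% with median-of-ratios scaling, 55.1% with upper quartile scaling, 69.8% and 68.8% on the common totals, and 65.2% and 66.6% with the GC trend of 4 or 2 libraries removed. The stricter settings test fewer genes by construction, and the scalings by 1 factor per library shift MES against hESC upwards, by 0.05 (upper quartile), 0.07 (median of ratios) and 0.23 (common total) on the log2 scale. Of 391 named genes past the rule, 346 passed on a common total, 347 and 329 with the GC trend of 2 or 4 libraries removed and 373 with the slope alone removed, and none changed direction. No list median passed from one direction to the other at a size of 1 or more. The rho with GC content lay between 0.16 and 0.25 over the minimums and pseudocounts tried, and was 0.01 after either removal. No paired analysis was possible because each group is 1 library.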

Other observations

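Single genes outside the signalling, adhesion and stem cell lists also differed; most of their lists held few genes past the rule. Among fatty acid carriers FABP5 was higher in MES (166 in hESC and 497 in MES), while FABP7 (12.1 and 2.84) was lower. GSTO1, a glutathione transferase, went from 26.6 to 169, and HMOX1, the heme oxygenase that stress induces, from 22.0 to 3.53, so redox genes were not all on one side. Of 22 imprinted genes PEG10, derived from a retrotransposon and needed for the placenta, was higher (8.34, 60.4, 10.5 and 1.92 in hESC, MES, HEP and HPC), and MEST was lower (87.9 and 31.6). Of 9 metallothionein genes MT1X, which binds zinc and copper, was lower (68.1 and 13.6).

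Of 18 genes of MHC class I and antigen processing 3 were lower and none higher. They were the immunoproteasome subunits PSMB8 (11.6 in hESC and 1.45 in MES) and PSMB10 (22.4 and 7.03) and the activator PSME1 (44.5 and 20.6), the last not with the GC trend removed. PSMB8 stood at 8.56 in HEP and 1.64 in HPC. Of 119 voltage-gated channel genes 3 were higher, led by KCNG1 (1.46 and 16.9), and 1 lower, no more than the 3.79% of all genes that were higher. Of 66 protocadherins 2 were higher and 1 lower, also below that share upwards: PCDH10, a marker of some mesoderm, was higher (0.71 and 36.6) with PCDH7 (0.75 and 10.2), and PCDH1 lower (36.2 and 7.28). Among tubulins TUBB6 (41.7 and 103) and TUBB2A (138 and 306) were higher, and TUBB3, of neurons, was lower (159 and 63.4).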
